A study of Mus musculus with 6 samples.

Results

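The acrosome and sperm-egg binding genes described here are 10 genes chosen by name: *Acr*, *Acrv1*, *Acrbp*, *Spaca1*, *Spaca3*, *Spaca4*, *Spaca7*, *Zpbp*, *Zpbp2* and *Izumo1*. All 10 were found by gene name among the 54532 genes of an RNA-seq table of mouse testis germ cells that express STRA8. The control group held 3 libraries of genotype Cre, and the cKO group held 3 libraries of genotype *Srsf1* knockout. The treatment field reads conditional knockout for all 6 samples. Total RNA of STRA8+ cells was sequenced in every library. The age of the mice, the Cre driver, the way the cells were isolated and the number of mice behind a library are not given in the labels. SRSF1 is a serine/arginine-rich splicing factor, and STRA8 is a factor of the retinoic acid response with which germ cells enter meiosis.

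The acrosome is a secretory vesicle that spermatids build from Golgi-derived vesicles and that caps the sperm nucleus. Its contents and membranes carry proteases, structural proteins and adhesion proteins with which sperm pass the zona pellucida, the coat of the egg, and then bind and fuse with the egg membrane. In the mouse testis, transcripts of many acrosomal proteins appear from the spermatocyte stage on and are abundant in round spermatids, after the stage at which *Stra8* itself is transcribed.

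Sequencing depth was 15364511 to 17310353 counted fragments in controls and 14447887 to 15326722 in cKO libraries. Levels are given as FPKM, fragments counted on a gene per kilobase of its length and relative to the size of the library. The targeted gene followed the labels: *Srsf1* was at 84.7, 45.2 and 51.9 FPKM in controls and at 5.08, 4.94 and 5.17 FPKM in cKO cells (log2 fold change -3.29 ± 0.216 SE, limma adjusted p = 5.6e-05). The labelled cell type was checked on *Stra8*, which was at 244.4 ± 20.3 FPKM (SD, n = 3) in controls and 272.2 ± 36.4 FPKM (SD, n = 3) in cKO cells (log2 fold change 0.15, limma adjusted p = 0.36). The control libraries also held RNA of later germ cells. Markers of spermatids, such as *Prm1*, a protamine that packs sperm DNA, were abundant in them, and control replicate 2 stood apart in these markers. Summed over 10 spermatid markers, it had 8657 FPKM where control replicates 1 and 3 had 2636 and 2589 FPKM. Nothing in the labels says that the libraries of a group came from separate mice, so the p-values measure the spread between these libraries, which may be technical.

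RNA of each acrosome gene was found in every control library and was low or undetected in the *Srsf1* cKO libraries. Which cells of the controls carried it was not tested, as these libraries also held RNA of later germ cells. The FPKM of the 10 genes summed to 125.3, 187.3 and 120.1 in control replicates 1, 2 and 3 and to 7.68, 8.35 and 8.36 in cKO replicates 1, 2 and 3. In bulk RNA such as this, fewer cells of a type and less RNA per cell cannot be told apart. In fragments counted, 13349 fell on the members in the control group and 1056 in the cKO group. For each of the 10 genes, every cKO library was below every control library, against 28.6% of all genes tested. All 10 were called lower in cKO cells by limma with Benjamini-Hochberg adjustment over all genes tested (adjusted p of at most 0.05), a call that 22.2% of the 15451 genes tested received, while 11.8% were called higher. Genes entered the test where their mean over all 6 libraries reached 1 FPKM, which the members did, but 6 of them (*Acr*, *Acrv1*, *Spaca3*, *Spaca4*, *Spaca7* and *Zpbp2*) passed through the control libraries alone, so that their count cannot be read as support. Without that filter 12.1% of 35994 genes were called lower, and the 10 members were still among them. All 10 were also called lower when control replicate 2 was left out, as detailed with the spread among controls. The median log2 fold change of the members was -2.98, or -2.85 with the 3 genes that had no cKO fragment set to a floor of 3 fragments per library, beside -0.0082 over all genes tested. Unless another scale is named, log2 fold changes are cKO against control on the log2(FPKM + 1) scale, on which changes at low FPKM come out smaller than they are.

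**Figure D1:**
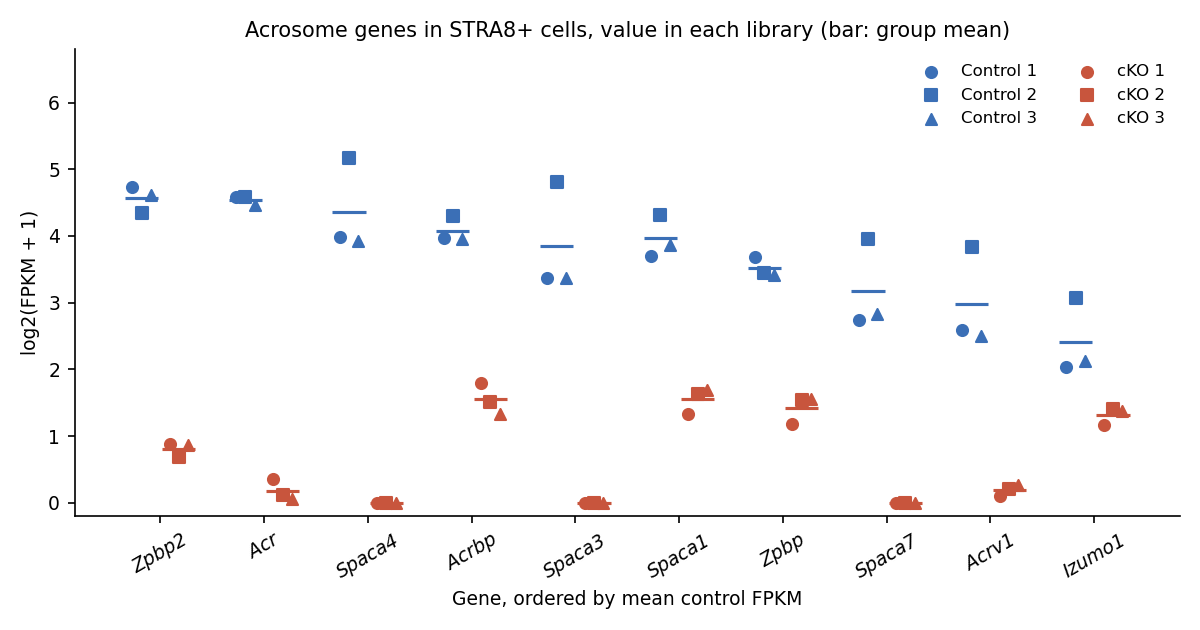
Level of each acrosome gene, as log2(FPKM + 1), in the 3 control libraries (blue) and the 3 cKO libraries (red), with genes ordered by mean control FPKM and a bar at each group mean. The groups did not overlap for any of the 10 genes, *Spaca4*, *Spaca3* and *Spaca7* were at 0 in all cKO libraries, and control replicate 2 (square) was the highest control for 7 genes.

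Each member gene was located in GENCODE M21 (GRCm38), and the coordinates in the deposited table matched for all 10. Members on chromosome 11, which are not neighbours, are *Zpbp* (chr11:11279626-11462408, minus strand, 8 exons), *Spaca3* (chr11:80858365-80867814, plus strand, 6 exons) and *Zpbp2* (chr11:98551097-98558665, plus strand, 7 exons). *Izumo1* (chr7:45621811-45628823, plus strand, 10 exons) and *Spaca4* (chr7:45725107-45725813, minus strand, 1 exon of 707 bases) are close to each other on chromosome 7. The others are *Acr* (chr15:89568326-89574585, plus strand, 5 exons), *Acrv1* (chr9:36693220-36698843, plus strand, 4 exons), *Acrbp* (chr6:125049689-125063267, plus strand, 10 exons), *Spaca1* (chr4:34024874-34050191, minus strand, 7 exons) and *Spaca7* (chr8:12573029-12600744, plus strand, 7 exons). Exon numbers are those of the longest protein-coding transcript.

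Some of the members share exonic bases with other genes, and how fragments were assigned in such stretches, and whether strand was used, is not given in the sources used here. *Izumo1* shares 654 exonic bases, 21.9% of its length, with *Rasip1* on the same strand. *Rasip1* was at 4.30, 5.81 and 5.34 FPKM in controls and at 6.24, 5.23 and 7.21 FPKM in cKO cells. *Acrbp* shares 975 bases (29.8%) with the noncoding gene *Gm44597* on the same strand, which was at 0.145 to 0.461 FPKM in all libraries. On the opposite strand, *Spaca7* shares 132 bases (13.5%) with *D630011A20Rik* and *Zpbp* shares 223 bases (5.25%) with *Spata48*, and *Acrbp* shares 90 bases with the antisense gene *4930557K07Rik*. Of the 100-base windows of each member's transcripts, 100% occur in no other annotated gene for 8 members, against 70.2% for *Acrbp* and 84.7% for *Izumo1*.

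*Acr* encodes acrosin, the serine protease stored in the acrosome as the zymogen proacrosin. It was at 23.0, 22.9 and 21.0 FPKM in controls and at 0.284, 0.0872 and 0.0420 FPKM in cKO cells. The control libraries agreed closely, and the cKO libraries held only 7, 2 and 1 fragments, the last 2 of which are under the floor of 3 fragments per library. The cKO mean was 0.618% of the control mean (log2 fold change -4.36 ± 0.118 SE, limma adjusted p = 1.87e-06).

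*Acrbp* encodes the proacrosin-binding protein, which controls the activation of proacrosin and the condensation of acrosomal contents. It was at 14.7, 18.8 and 14.5 FPKM in controls and at 2.47, 1.85 and 1.53 FPKM in cKO cells, with 76 to 127 fragments per cKO library. Every cKO library was thus well above the floor of 3 fragments for *Acrbp*, which was at 12.2% of its control mean (log2 fold change -2.53 ± 0.156 SE, limma adjusted p = 4.27e-05). The ratio of *Acr* to *Acrbp* FPKM was 1.57, 1.22 and 1.45 in controls and 0.115, 0.0470 and 0.0275 in cKO cells. The ratio did not overlap between the groups, but the cKO ratios rest on 1 to 7 *Acr* fragments. With the cKO libraries under 3 *Acr* fragments set to that floor, the mean log2 ratio fell by at least 4.0, with a two-sided exact permutation p = 0.1, the smallest that 3 libraries against 3 can give.

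*Acrv1* encodes the acrosomal vesicle protein SP-10. It was at 5.03, 13.3 and 4.68 FPKM in controls and at 0.0698, 0.150 and 0.198 FPKM in cKO cells, with 4, 8 and 11 fragments. Control replicate 2 was far above the other controls, and the lowest control was still 23.6 times the highest cKO library (log2 fold change -2.79 ± 0.349 SE, limma adjusted p = 0.00108).

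*Spaca3* encodes a lysozyme-like protein of the acrosome. It was at 9.38, 27.2 and 9.36 FPKM in controls, and no fragment was counted on it in any cKO library. Set against a floor of 3 fragments per library, it was at least 73.6-fold lower in cKO cells (limma adjusted p = 3.43e-04), or at least 45.1-fold without control replicate 2.

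*Spaca7* encodes a protein of the acrosomal lumen. It was at 5.70, 14.5 and 6.08 FPKM in controls and also without a fragment in the cKO libraries, at least 43.4-fold lower (limma adjusted p = 3.72e-04), or at least 29.2-fold without control replicate 2. For *Spaca3* and *Spaca7*, as for *Acrv1*, control replicate 2 was the highest library and replicates 1 and 3 lay close together.

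*Spaca1* encodes a protein of the inner acrosomal membrane needed to shape the acrosome. It was at 12.0, 18.9 and 13.6 FPKM in controls and at 1.52, 2.10 and 2.23 FPKM in cKO cells, from 38 to 54 fragments per cKO library. Its cKO mean was 13.1% of the control mean (log2 fold change -2.41 ± 0.182 SE, limma adjusted p = 1.04e-04).

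*Spaca4* encodes a small lipid-anchored protein of the Ly6 family that acts in binding to the zona pellucida. It was at 14.9, 35.1 and 14.2 FPKM in controls and without a fragment in cKO cells, at least 76.5-fold lower against the floor of 3 fragments per library (limma adjusted p = 9.54e-05), or at least 52.0-fold without control replicate 2. *Spaca4*, *Spaca3* and *Spaca7* were the members without a fragment in cKO cells, and *Spaca4* is the only member with a single exon.

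*Zpbp* and *Zpbp2* encode the zona pellucida-binding proteins of the acrosome, which are related in sequence. *Zpbp* was at 11.9, 9.84 and 9.66 FPKM in controls and at 1.27, 1.91 and 1.94 FPKM in cKO cells. *Zpbp2* was at 25.6, 19.4 and 23.6 FPKM in controls and at 0.832, 0.609 and 0.821 FPKM in cKO cells. Control replicate 2 was the lowest control for *Zpbp2* and lay between the others for *Zpbp*, so these genes did not follow the excess of that library. *Zpbp* was left at 16.3% of its control mean (log2 fold change -2.09 ± 0.144 SE, limma adjusted p = 6.79e-05). *Zpbp2* was left at 3.30% (log2 fold change -3.76 ± 0.129 SE, limma adjusted p = 4.00e-06). *Zpbp2* was above *Zpbp* in every control library, with FPKM ratios of 2.16, 1.97 and 2.44, and below it in every cKO library, with ratios of 0.653, 0.318 and 0.424. The mean log2 ratio differed by -2.29 between the groups, and the two-sided exact permutation p was 0.1, again the smallest possible.

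*Izumo1* encodes the sperm membrane protein that binds JUNO on the egg and is required for fusion. It was at 3.10, 7.39 and 3.38 FPKM in controls and at 1.23, 1.64 and 1.61 FPKM in cKO cells, with 58 to 73 fragments per cKO library. The groups came closest for this member, with the lowest control 1.89 times the highest cKO library. Its cKO mean was 32.3% of the control mean, the largest share among the 10 members (log2 fold change -1.10 ± 0.278 SE, limma adjusted p = 0.022). Without control replicate 2 the share was 46.1%, still the largest. The call was lost when cKO replicate 1 was left out (log2 fold change -1.02, limma adjusted p = 0.072), when replicate 2 was (-1.14, adjusted p = 0.053) and when replicate 3 was (-1.13, adjusted p = 0.060). The part of the exons shared with *Rasip1* in these values was not tested.

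The sequences before the transcription start are shown for *Izumo1*, which kept the largest share of its control level, for *Spaca4*, close to it on chromosome 7, which was undetected in cKO cells, and for the related genes *Zpbp* and *Zpbp2*, whose order was exchanged. RefSeq promoters (GRCm38.p6) of 300 bases, 250 before and 50 after the start, were matched for 9 of the 10 members, and *Acr* was not matched. They are *Izumo1* (chr7:45621561-45621860, plus strand), *Spaca4* (chr7:45725767-45726066, minus strand), *Zpbp* (chr11:11462370-11462669, minus strand) and *Zpbp2* (chr11:98550847-98551146, plus strand), written 5′ to 3′ with the motifs found in capitals.
Izumo1: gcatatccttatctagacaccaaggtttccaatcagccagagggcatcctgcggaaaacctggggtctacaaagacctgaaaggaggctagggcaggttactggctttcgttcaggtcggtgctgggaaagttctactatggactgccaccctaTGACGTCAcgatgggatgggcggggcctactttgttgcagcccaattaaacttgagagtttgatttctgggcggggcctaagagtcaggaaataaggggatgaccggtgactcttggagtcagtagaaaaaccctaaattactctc
Spaca4: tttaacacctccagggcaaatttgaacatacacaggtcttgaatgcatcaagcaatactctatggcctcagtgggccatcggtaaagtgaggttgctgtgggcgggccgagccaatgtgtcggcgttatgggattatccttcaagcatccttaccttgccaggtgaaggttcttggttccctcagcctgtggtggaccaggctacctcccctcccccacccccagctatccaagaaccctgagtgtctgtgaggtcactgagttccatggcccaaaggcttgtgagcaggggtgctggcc
Zpbp: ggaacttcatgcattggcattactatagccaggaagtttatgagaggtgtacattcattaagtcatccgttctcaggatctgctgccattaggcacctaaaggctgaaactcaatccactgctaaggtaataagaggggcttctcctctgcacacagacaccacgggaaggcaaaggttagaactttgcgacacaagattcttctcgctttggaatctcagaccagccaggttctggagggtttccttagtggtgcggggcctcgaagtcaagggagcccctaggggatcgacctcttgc
Zpbp2: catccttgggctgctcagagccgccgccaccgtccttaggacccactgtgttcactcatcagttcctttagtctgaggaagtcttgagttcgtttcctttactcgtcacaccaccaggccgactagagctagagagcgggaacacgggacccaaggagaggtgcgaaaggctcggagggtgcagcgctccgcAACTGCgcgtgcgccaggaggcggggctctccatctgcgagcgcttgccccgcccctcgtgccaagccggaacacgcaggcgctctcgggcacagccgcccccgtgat
Motifs were searched on both strands. They were TGACGT, the core of the cyclic AMP response element, its palindrome TGACGTCA, which holds that core on either strand, the TATA box TATAAA, the RFX motif core GTTGCC and the MYB motif core AACTGC. TGACGTCA was found in the *Izumo1* promoter, 96 bases before the start, and in 1.79% of all 32851 promoters. TGACGT was found in *Izumo1*, within this same palindrome, and in *Acrbp*, 18 bases before the start, and in 7.51% of all promoters. TATAAA was found in *Spaca7* (13.6% of all promoters), on the reverse strand at -242 from the start. GTTGCC was found in *Acrbp* (12.5%), on the reverse strand at -199, and AACTGC in *Zpbp2*, 58 bases before the start (13.7%). None of the motifs was found in the windows of *Spaca4*, *Spaca1*, *Spaca3*, *Acrv1* or *Zpbp*. No letters searched were thus common to the genes that were undetected in cKO cells, and these matches are descriptions of the letters alone.

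Ordered by mean FPKM in controls, the genes were *Zpbp2* (22.9 ± 3.19, SD, n = 3), *Acr* (22.3 ± 1.14), *Spaca4* (21.4 ± 11.8), *Acrbp* (16.0 ± 2.43), *Spaca3* (15.3 ± 10.3), *Spaca1* (14.8 ± 3.59), *Zpbp* (10.5 ± 1.23), *Spaca7* (8.77 ± 4.99), *Acrv1* (7.68 ± 4.90) and *Izumo1* (4.63 ± 2.40). Among neighbours in this order, only the ranges of *Spaca1* and *Zpbp* did not overlap. *Izumo1* was the lowest member in each control library. Without control replicate 2 the means of *Spaca3* (9.37 FPKM) and *Spaca4* (14.5 FPKM) were lower, which put *Spaca3* below *Spaca1* and *Zpbp* and *Spaca4* just below *Acrbp*, while the mean of *Acrv1* was 4.85 FPKM in an unchanged place.

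In cKO cells the order of mean FPKM was *Acrbp* (1.95 ± 0.477, SD, n = 3), *Spaca1* (1.95 ± 0.379), *Zpbp* (1.71 ± 0.376), *Izumo1* (1.49 ± 0.226), *Zpbp2* (0.754 ± 0.126), *Acrv1* (0.139 ± 0.0650), *Acr* (0.138 ± 0.129), and then the 3 genes at 0. Among the leading 4 genes, each overlapped with the next. *Izumo1* was above *Zpbp2*, and *Zpbp2* above *Acrv1*, without overlap. *Zpbp2* and *Acr*, which led the order in controls, were thus in the 5th and 7th places in cKO cells.

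The members also differed in how they varied among the controls. Against the mean of control replicates 1 and 3, control replicate 2 held 2.90 times the FPKM of *Spaca3*, 2.75 times that of *Acrv1*, 2.47 times that of *Spaca7*, 2.41 times that of *Spaca4* and 2.28 times that of *Izumo1*. For *Spaca1* and *Acrbp* the ratio was 1.47 and 1.29. *Acr* (1.04), *Zpbp* (0.914) and *Zpbp2* (0.787) did not share this excess. The sum of 10 spermatid markers was 3.31 times higher in control replicate 2 by the same measure, while for the sum of 10 pachytene spermatocyte markers the ratio was 1.11. At much lower levels, the sums of Leydig cell (3.33), peritubular cell (1.65) and macrophage and blood markers (1.66) were also higher in control replicate 2. The part of control replicate 2 in the results was measured by leaving it out. All 10 members were then still called lower, with log2 fold changes between -4.34 for *Acr* and -0.77 for *Izumo1* and a highest limma adjusted p of 0.0082.

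**Figure D2:**
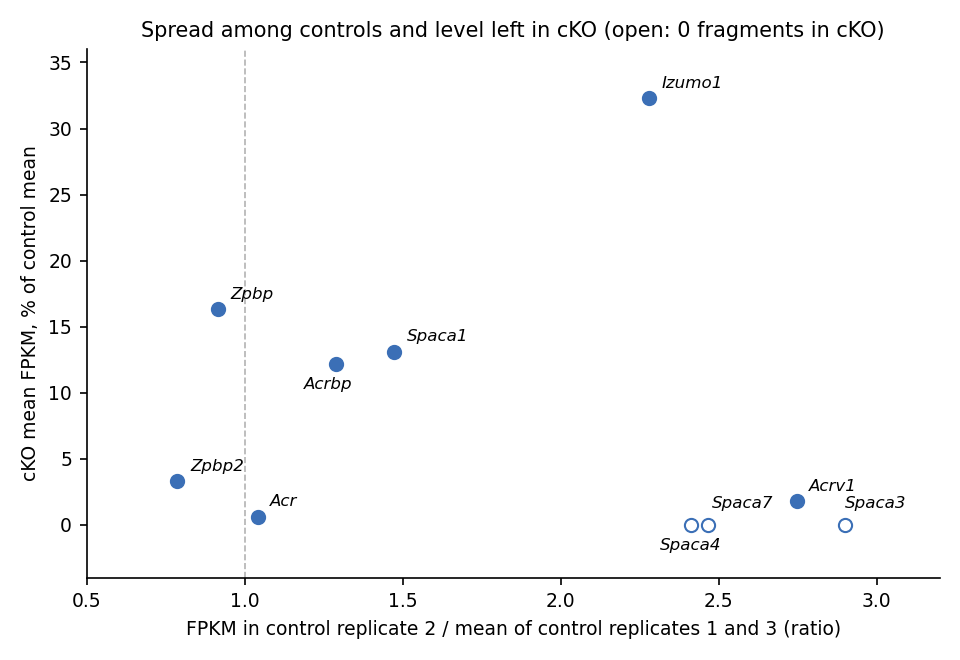
For each acrosome gene, FPKM in control replicate 2 over the mean of control replicates 1 and 3 (horizontal, ratio) against the cKO mean as a percentage of the control mean (vertical). *Acr*, *Zpbp* and *Zpbp2* lie near a ratio of 1, *Spaca3*, *Acrv1*, *Spaca7*, *Spaca4* and *Izumo1* lie above 2, and *Izumo1* lies highest, at 32.3%. Both axes use control replicate 2, without which *Izumo1* would be at 46.1%. Open circles are genes with no fragment in cKO libraries.

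Genes with the pattern most like the mean of the members over the 6 libraries were searched among 12310 protein-coding genes, by Pearson's r of log2(FPKM + 1). The 5 most alike were *Llcfc1* (r = 0.99996), *Akap4* (0.99993), *Prm1* (0.99993), *Pudp* (0.99992) and *Gstt4* (0.99992). *Llcfc1* encodes a sperm protein required for fusion with the egg, *Akap4* a protein of the fibrous sheath of the sperm tail, and *Prm1* a protamine. *Llcfc1* was at 27.0, 60.8 and 26.1 FPKM in controls and had no fragment in cKO cells, and *Prm1* was at 719.6, 2431 and 695.6 FPKM in controls and at 1.23, 1.32 and 1.27 FPKM in cKO cells. A value above 0.99 was reached by 568 genes (4.61%), as the 6 points form 2 groups and share their libraries, so these values are descriptions. Among the members themselves, r with their mean ran from 0.916 for *Izumo1* to 0.999 for *Spaca4*. Each member is part of that mean, which raises its r, so these values do not compare with those of other genes.

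Other genes of the acrosome were described in 5 lists by function. In the list of acrosomal matrix proteins and enzymes, 13 of 14 genes could be tested and all 13 were called lower in cKO cells, beside 22.2% of all genes tested, with a median log2 fold change of -2.88. Of the 13, 8 entered the test through the control libraries alone, so this count too is no support, and without the filter *Spaca5* lost its call (limma adjusted p = 0.094). *Dkkl1*, an acrosomal glycoprotein, was at 96.7, 136.2 and 92.7 FPKM in controls and at 12.7, 13.6 and 14.8 FPKM in cKO cells (log2 fold change -2.88, limma adjusted p = 2.04e-05). *Spink2*, the inhibitor that keeps acrosin inactive in the acrosome, was at 80.3, 83.1 and 73.7 FPKM in controls and at 0.888, 1.04 and 1.34 FPKM in cKO cells (log2 fold change -5.26, limma adjusted p = 9.15e-07). Like *Acr*, *Spink2* had no excess in control replicate 2. *Pcsk4*, a proprotein convertase, fell less, from 21.5 ± 3.76 to 5.71 ± 0.587 FPKM (SD, n = 3, log2 fold change -1.74 by limma), and *Prss37*, a protease-like protein, had no fragment in cKO cells. *Spam1*, the sperm hyaluronidase, was under the filter, at 1.51, 1.94 and 1.70 FPKM in controls and 0 in cKO cells.

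In the list of the machinery for fusion with the oocyte, 9 of 11 genes tested were called lower, beside 22.2% of all genes tested, but 7 of the 9 entered the test through the control libraries alone. *Cd9* was higher, and *Dcst2* passed in neither direction (log2 fold change -0.18, limma adjusted p = 0.58). The median log2 fold change was -1.80. *Llcfc1*, *Tssk6* and *Izumo2* were lower, with *Izumo2*, a relative of *Izumo1*, at 12.2, 29.8 and 13.0 FPKM in controls and at 0, 0.0943 and 0.0909 FPKM in cKO cells. *Tssk6*, a kinase needed for the relocation of IZUMO1 in sperm, fell from 33.8 ± 17.3 to 2.57 ± 1.22 FPKM (SD, n = 3, log2 fold change -3.24 by limma). *Cd9*, which encodes a tetraspanin known for its role on the egg membrane and also present on spermatogonia, was at 7.72, 9.70 and 7.55 FPKM in controls and at 13.9, 14.4 and 12.8 FPKM in cKO cells (log2 fold change 0.66, limma adjusted p = 0.0042). *Spaca6* was under the filter.

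In the list of chaperones and partners that sperm need for binding to the zona, 3 of 11 genes tested were called lower, a share near the 22.2% of all genes tested, and 8 passed in neither direction, with a median log2 fold change of -0.027. The 3 were *Ace*, angiotensin-converting enzyme (22.1 ± 12.9 against 2.0 ± 0.0896 FPKM, SD, n = 3), *Clgn*, the testis chaperone calmegin (53.5 ± 2.58 against 12.6 ± 2.09 FPKM), and *Calr3*, a testis calreticulin (16.9 ± 9.64 against 5.91 ± 1.23 FPKM, log2 fold change -1.26, limma adjusted p = 0.031). The call of *Calr3* was lost without control replicate 3 or without any cKO replicate (limma adjusted p from 0.051 to 0.092), and without the filter on low values (0.066). A replicate block in the fit also ended this call. The most abundant genes of the list did not pass. *Tex101*, a surface protein of germ cells, was at 564.8 ± 87.2 and 543.3 ± 100.1 FPKM (limma adjusted p = 0.81). *Hspa5* (adjusted p = 0.85), *Calr* (0.93) and *Ly6k* (0.23), by limma, also gave no call, and the sign of the differences of *Tex101*, *Hspa5* and *Calr* depended on the scaling or on the libraries. *Pdilp* was not analysed here.

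In the list for acrosome biogenesis and the perinuclear theca, the cytoskeletal layer between acrosome and nucleus, 14 of 21 genes tested were called lower, beside 22.2% of all genes tested, and none higher. Of the 14, 12 entered the test through the control libraries alone, and without the filter *Actrt1* lost its call (limma adjusted p = 0.086). The median log2 fold change was -2.91, or -2.77 with genes without a cKO fragment at the floor of 3 fragments, and -2.17 over all 22 genes of the list without the filter. *Actrt2* and *Actl9*, actin-related proteins of the theca, were at 37.5 to 110.6 and at 26.6 to 83.5 FPKM in controls and at 0 and at most 0.335 FPKM in cKO cells. *Hook1*, a linker to microtubules, fell by much less, from 32.5 ± 2.51 to 24.1 ± 2.60 FPKM (SD, n = 3, log2 fold change -0.42, limma adjusted p = 0.016), a call that was lost without cKO replicate 1 (limma adjusted p = 0.054) or 3 (0.063). *Smap2*, which acts in vesicle traffic from the Golgi, gave no call (log2 fold change -0.24, limma adjusted p = 0.26). It was called lower in 1 of 15 alternatives, over which its log2 fold change ran from -0.40 to -0.13.

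In the list for the acrosome reaction, 2 of 8 genes tested were called lower, a share near the 22.2% of all genes tested, and 6 passed in neither direction, with a median log2 fold change of -0.026. The 2 were *Plcz1*, the sperm phospholipase that activates the egg, which had no fragment in cKO cells and entered the test through the control libraries alone, and *Plcd4*, another phospholipase (4.94 ± 0.617 against 3.23 ± 0.289 FPKM, SD, n = 3, log2 fold change -0.49, limma adjusted p = 0.020). The call of *Plcd4* was lost without control replicate 1 or without cKO replicate 2 or 3 (limma adjusted p from 0.060 to 0.073), and under quantile normalization (log2 fold change -0.17, adjusted p = 0.23). A replicate block in the fit also ended this call. *Napa*, *Vamp2*, *Nsf* and *Stx2*, parts of the general machinery of membrane fusion that many cell types use, had log2 fold changes of -0.047, 0.28, 0.20 and -0.13 and gave no call (lowest limma adjusted p = 0.0615). The direction for *Napa* and *Stx2* changed with the scaling between libraries. *Vamp2* was called higher under quantile normalization (limma adjusted p = 0.016), with recomputed FPKM (0.039) and with limma-voom (0.036), and *Nsf* under quantile normalization (0.023) and with limma-voom (0.041).

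**Figure D3:**
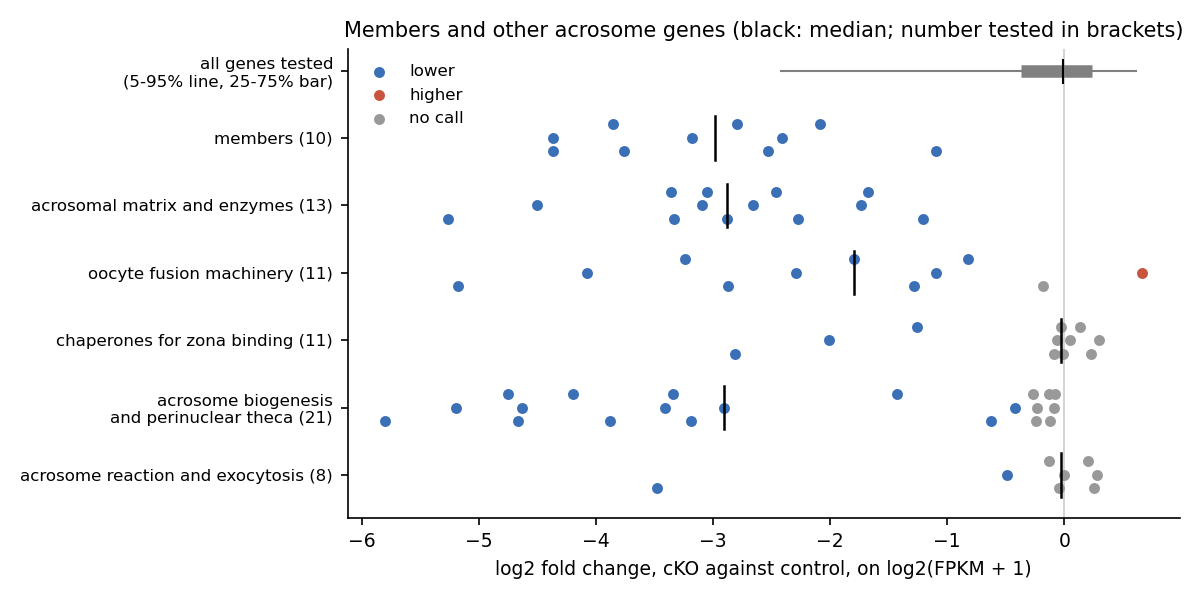
Log2 fold change (cKO against control, log2(FPKM + 1) scale) of each gene tested, for the 10 members, the 5 other acrosome lists and all genes tested, coloured by the limma call, with the median of each list as a black line. The medians lie between -2.98 and -1.80 for the members and the matrix, fusion and biogenesis lists, and at -0.027 and -0.026 for the chaperone and acrosome reaction lists, beside -0.0082 for all genes.

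Markers of germ cell stages and of somatic cells were summed in each library, and their part in the results on the members was not tested. The counts of markers called stand beside the 22.2% of all genes tested that were called lower and the 11.8% called higher. Of these counts, 3 of 10 lower and 1 of 8 higher are near these shares. The spermatid markers summed to 2589 to 8657 FPKM in controls and to 3.48 to 4.63 FPKM in cKO cells, all 10 were called lower, 9 of them in the test through the control libraries alone, and *Catsper1* and *Tex33* were at 0 in each cKO library. The pachytene markers summed to 1118 to 1321 FPKM in controls and to 243.3 to 270.8 FPKM in cKO cells, and 9 of 10 were called lower, 4 of them through the control libraries alone. For early meiotic prophase, 3 of 10 markers were lower, and the sums were 852.5 to 1130 FPKM in controls and 871 to 1132 FPKM in cKO cells. For differentiating spermatogonia, 1 of 8 was lower, with sums of 789.7 to 885 and 867.3 to 964.1 FPKM. For undifferentiated spermatogonia, 1 of 6 tested was lower and 2 were higher, of which *Bcl6b* lost its call without the filter (limma adjusted p = 0.057), with sums of 20.4 to 25.3 and 21.6 to 26.6 FPKM. Of 5 markers of germ cells in general, 3 were lower and 1 was higher, and *Ddx4* (limma adjusted p = 0.091) and *Tdrd1* (0.058) lost their call without the filter, with sums of 901.8 to 957.4 and 919.4 to 1028 FPKM. Sertoli cell markers, with 1 of 8 tested higher (*Rhox5*, lost without the filter with a limma adjusted p = 0.056), summed to 165.3 to 184.1 and 159.1 to 254.8 FPKM. Leydig cell (2.96 to 14.0 against 6.35 to 10.7 FPKM), peritubular cell (3.84 to 6.64 against 7.24 to 8.40 FPKM) and macrophage and blood markers (4.94 to 8.45 against 5.16 to 6.46 FPKM) gave no call, with 2 genes tested in each.

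**Figure D4:**
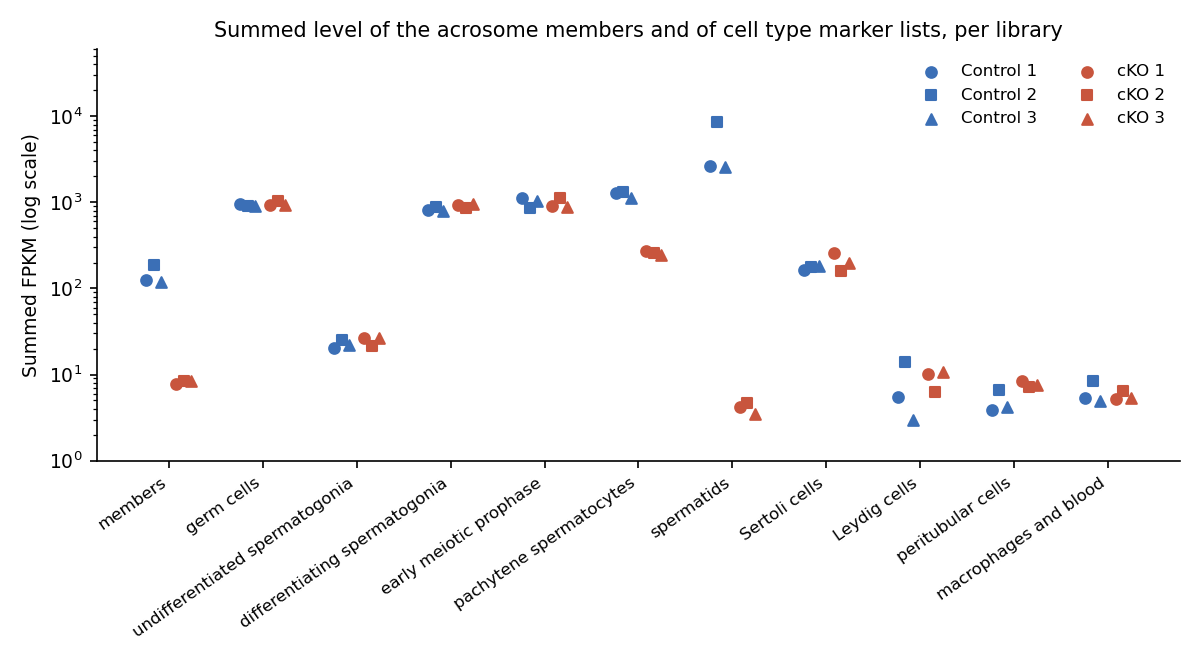
Summed FPKM (log scale) of the 10 acrosome genes and of each marker list in the 3 control (blue) and 3 cKO (red) libraries. The acrosome genes, pachytene and spermatid markers were below all controls in each cKO library, and control replicate 2 (square) was far above the other controls for the spermatid markers, and also the highest control for the acrosome genes and the pachytene, spermatogonia, Leydig cell, peritubular cell and macrophage and blood markers.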

How the data were processed

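RNA-seq values of 3 control and 3 *Srsf1* cKO libraries of STRA8+ cells were analysed, grouped by title and genotype. The authors deposited FPKM per gene with the gene length, 1 column per library. The submitters' processing notes name HISAT2 2.0.5 and mm10, and the counting tool is not given in the sources used here. The product of FPKM and gene length was a whole multiple of 1 unit per library (tolerance 0.01), which gave the fragments per gene. The deposited FPKM had equal median-of-ratios factors in all libraries (1.006 over 21303 genes), so they had been scaled between libraries before deposit.

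Genes that averaged at least 1 FPKM were tested on log2(FPKM + 1) with limma 3.58.1 in R 4.3.3 (eBayes with trend, two-sided, Benjamini-Hochberg adjustment over all genes, threshold 0.05). Ratios of genes were tested by exact permutation in scipy 1.17.1. The fit was tested on simulated data. Members, lists and tests were chosen with earlier results of these data known. Named were the 10 members, *Srsf1*, the 4 genes of highest mean FPKM in each list, genes singled out by counts of 5 or fewer, and the 5 genes most like the members' mean. *Spaca5*, *Actrt1* and the marker genes *Prm1*, *Stra8*, *Ddx4*, *Tdrd1*, *Bcl6b*, *Rhox5*, *Catsper1* and *Tex33* and the overlapping genes were named beyond this rule. An item of the list for the acrosome reaction is not reported here. Alternatives were another pseudocount, 2 other filters, 3 scalings, no trend, a replicate block, limma-voom on fragments, and leaving out each library. A library with fewer than 3 fragments on a gene was taken to be under the floor, which covers counting error only.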

Additional observations from a re-analysis of the deposited data

How the results depend on the processing

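The call of each member was recomputed under 15 alternatives, of which median-of-ratios scaling had equal factors in all libraries and could change almost nothing. All 10 were called lower under each, except that 7 of 7 tested were at a mean of at least 5 FPKM, and that *Izumo1* lost its call without cKO replicate 1, 2 or 3 (log2 fold change over the left-out libraries -1.29 to -0.77, adjusted p up to 0.072). With limma-voom, which has another scale, log2 fold changes of the members ran from -8.64 to -1.45.

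Over all genes, 1950 were called lower at a mean of at least 5 FPKM. Quantile normalization, which moved the median of all genes to 0.21, called 5164 higher and 2527 lower, where the main test called 1821 and 3437. The replicate block called 891 higher and 2870 lower. Without a filter, 4361 were called lower, of 35994. Leaving out libraries gave 965 to 1752 genes higher and 2763 to 3202 lower. Same-numbered libraries showed no clear shared deviation (correlations of deviations -0.0014, -0.11 and 0.016). Differently numbered ones gave -0.155 to 0.135. Such values cannot show that the libraries were unpaired, and the labels do not say. The block changed no call of a member. It ended those of *Calr3* (adjusted p = 0.064) and *Plcd4* (0.063).

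Differences of genes without a call turned direction. Under quantile normalization *Tex101* was at 0.018, *Calr* at 0.018, *Napa* at 0.059 and *Stx2* at 0.15. With FPKM recomputed from fragments *Calr* was at 0.033 and *Napa* at 0.00037, and with voom *Calr* was at 0.031. Leaving out libraries gave -0.20 to 0.064 for *Tex101*, -0.14 to 0.085 for *Calr*, -0.11 to 0.14 for *Hspa5* and -0.10 to 0.012 for *Napa*. The cause was not tested. Of 536 recomputed single-gene values, 498 kept direction and call, 16 lost the call, 6 gained it and 16 turned. Direction could not turn under the other filters, without trend or with the block, which leave the log2 fold change as it was. Median-of-ratios scaling could change almost nothing either, so this tally cannot be read as support. In cKO cells 3 members had no fragment and *Acr* had 1 to 7, so depth limits their folds.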
